A study of Mus musculus with 22 samples.

Results

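Newborn retinal ganglion cells were compared with the youngest ones of the series, all from mouse retina and each profiled alone. There were 4 ganglion cells of P0, the day of birth (cells A3, C6, A6 and F1), and 3 of embryonic day 12.5, or E12.5 (cells E4, F3 and F6), out of 13 ganglion cells and 22 cells in the series. Retinas were dissociated with papain, each cell was drawn into a capillary and lysed, and its mRNA was copied with an oligo dT primer, tailed, amplified by 35 cycles of PCR and hybridised to an Affymetrix 430 2.0 array. The labels give no genotype, strain, treatment or animal for either stage, and the cell type was assigned only after profiling, so ganglion markers do not test it independently. Cells of a stage may share an animal, so each stage counted as 1 sample: no p-value could be given, and ± below is the spread between cells. The stages were chosen because neither held lens or embryonic globin transcripts.

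A gene was called held by a cell at a signal of 1000 or more (log2 9.97), and 7184 of 18194 genes, held by no fewer than 3 of the 22 cells, were tested. Listed genes were those held by every cell of one stage and by no cell of the other. By this rule 36 genes were listed for P0 (0.501% of the genes tested) and 46 for E12.5 (0.64%), 82 in all. Another 465 genes (6.47%) were held by all 7 cells, and 563 (7.84%) by none. These values chose the members, so their differences describe the lists and support nothing further. Signals were raised to a floor of 200 before log2 was taken, and a log2 difference is the mean of the P0 cells minus the mean of the E12.5 cells. Over all genes tested its median was 0.08. Bracketed values with 2 decimals beside a gene are such log2 differences. Signals of single cells are given for A3, C6, A6 and F1 at P0 and then for E4, F3 and F6 at E12.5. Where every cell of a stage was at the floor, the size of the difference depends on that floor.

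Ganglion cells are the first neurons of the retina to be born, and they alone send axons through the optic nerve to the brain. At the younger stage, newly born cells are starting their axons toward the optic disc. By birth many axons have reached their targets, and the cells are growing dendrites, meeting their first synaptic input and taking part in spontaneous waves of activity.

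The cells held between 2293 and 4352 genes: 3481, 3084, 2293 and 4352 in P0 cells A3, C6, A6 and F1, against 2653, 3494 and 3609 in E12.5 cells E4, F3 and F6. Cell F1 of P0 held the most and cell A6 of P0 the fewest. Cells of the same stage were little more alike than cells of different stages. Spearman correlations across genes, which are not independent replicates, ran from 0.254 to 0.436 within P0, from 0.353 to 0.409 within E12.5 and from 0.205 to 0.449 between the stages. The length of each list depended on single cells, since fewer cells then have to meet the rule. For P0 the list held 65 genes without cell A3, 82 without C6, 122 without A6, 58 without F1, 75 without F3 and 77 without F6 (51 without E4). For E12.5 it held 71 genes without A3, 129 without F1, 155 without E4, 115 without F3 and 115 without F6 (60 and 63 without the remaining P0 cells). All 36 and 46 genes remained on these longer lists, as they must when a cell is removed from the rule.

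Between 9 and 17 of the 20 ganglion markers measured were held per cell, and 7 were held by all 7 cells: Ebf3, Slc17a6, Rbpms, Gap43, Stmn2, Tubb3 and Nefl. The count per cell was 10, 14, 9 and 14 in P0 cells A3, C6, A6 and F1, against 12, 17 and 14 in E12.5 cells E4, F3 and F6. Not all 7 shared markers were particular to ganglion cells. Stmn2 and Tubb3 were also held by 5 of 5 P0 amacrine cells, Gap43 by 2 and Nefl by 1. Ebf3, Slc17a6 and Rbpms were held by none of them. Pou4f2, a defining factor of ganglion cells, was not analysed here. Pou4f1, its close relative, had signals of 18792, 35262, 275 and 8864 at P0, against 14.6, 20757 and 571 at E12.5. It was therefore below 1000 in cell A6 of P0 and in cells E4 and F6 of E12.5.

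Markers of other retinal cells were mostly below 1000. Of the genes measured, 13 of 15 amacrine, 21 of 24 photoreceptor, 8 of 10 bipolar, 6 of 8 horizontal, 11 of 14 glial and 26 of 26 lens and pigment epithelium genes were held by none of the 7 cells. Each of these cells held only 2293 to 4352 of all 18194 genes, and the share of all genes held by none was not computed. Neither these counts nor those below for progenitor and cell cycle genes therefore show how pure the cells were. Of 20 progenitor genes, 1, 3, 4 and 3 were held in P0 cells A3, C6, A6 and F1, against 5, 4 and 5 in E12.5 cells E4, F3 and F6. Fgf15, a progenitor signal, was at 72.2, 15.6, 25.8 and 10.4 at P0, against 6604, 75.6 and 4628 at E12.5. Cell cycle genes were held in numbers of 2, 9, 1 and 4 out of 38 in those P0 cells, against 6, 2 and 5 in the E12.5 cells, and 22 were held by none. Cell C6 of P0, with 9, had 25568 for Pcna, the sliding clamp of DNA replication, and 9144 for Ccnd1, a G1 cyclin. Both were below 1000 in the other P0 cells. At E12.5, cells E4, F3 and F6 had 8492, 10511 and 2306 for Pcna and 6413, 156 and 5914 for Ccnd1. Adult alpha globin Hba-a2 was the only one of 25 blood, vascular and immune genes held. Its signal was 24634 to 40101 in the 7 cells, and it was held by all 22 cells of the series, while the embryonic globin Hbb-y stayed at or below 337 in the 7 cells. What part these transcripts play in the listed genes was not tested.

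The P0 genes had a median difference of 3.97, with a range of 2.80 to 5.48. Cell A6 had the highest P0 signal for 20 of the 36, and cell F1 the lowest for 18. Within P0 the highest cell was 1.85 to 17.8 times the lowest, with a median of 6.70 times. For 19 of the 36 genes all 3 E12.5 cells were at the floor. The functional groups below were formed with the lists in view and carry no test.

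**Figure D1:**
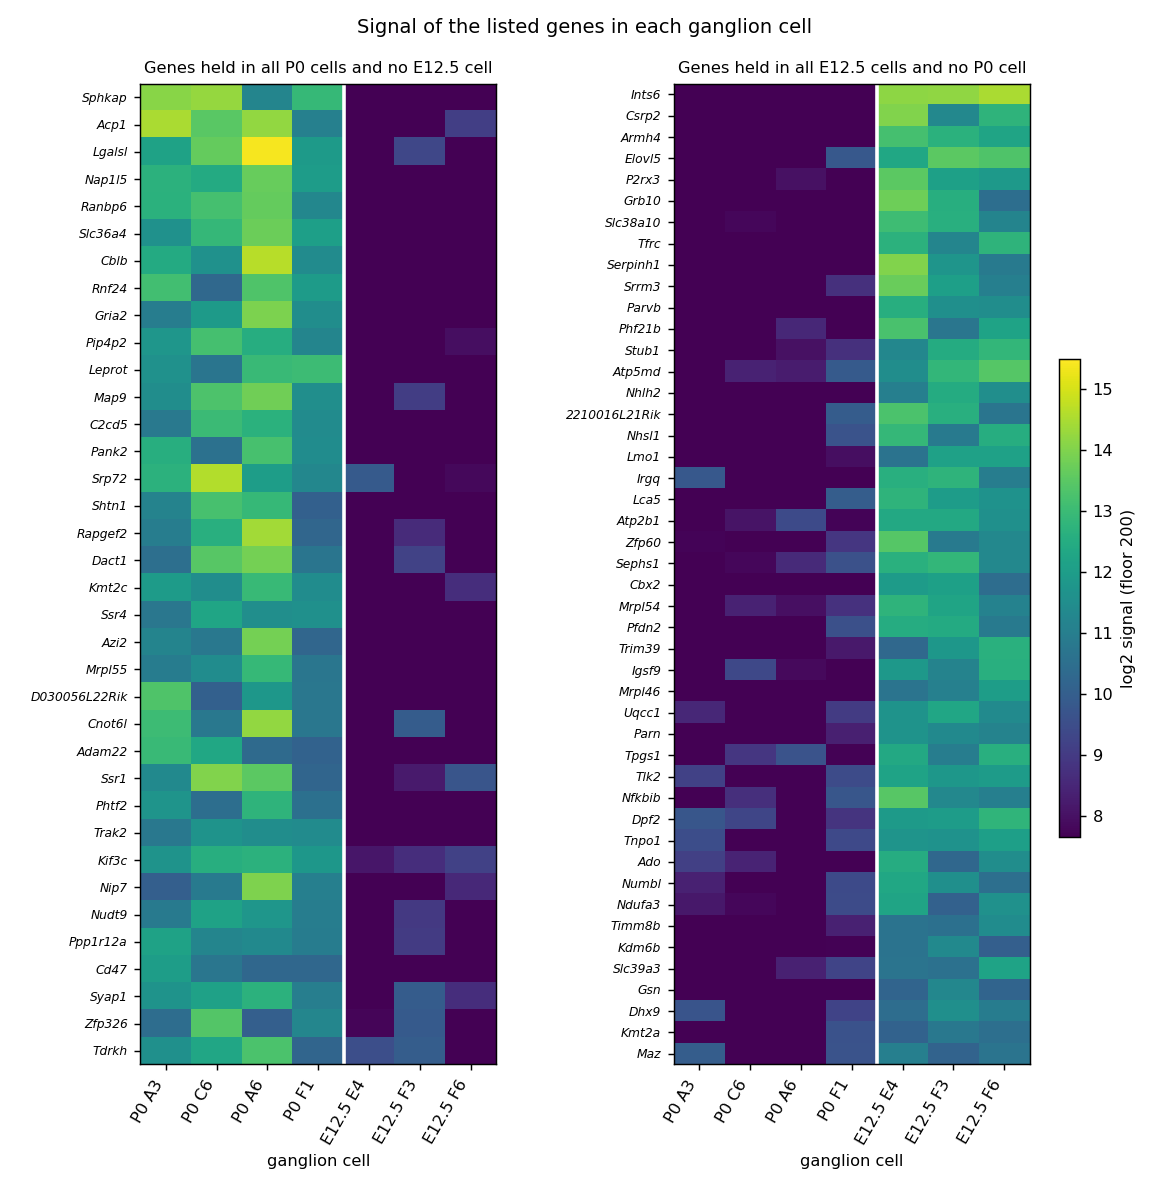
Heat map of log2 signal (floor 200, log2 7.64) for the 36 P0 genes (left panel) and the 46 E12.5 genes (right panel), 1 row per gene in order of difference, 1 column per cell, P0 cells left of the white line and E12.5 cells right of it. Cell A6 is the brightest P0 column for 20 of the 36 P0 genes, and cell F1 is above the floor for 29 of the 46 E12.5 genes.

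Receptors, anchors and synaptic proteins made up 4 of the P0 genes. Sphkap, an anchor of protein kinase A, led the list with signals of 17638, 19603, 2401 and 7646 at P0, against 36.4, 91.5 and 143 at E12.5 (log2 difference 5.48, with 13.12 ± 1.40 at P0, SD, n = 4 cells, and 7.64 in every E12.5 cell). It was below 1000 in all 15 cells of the series outside the comparison. Gria2, the GluA2 subunit that lowers the calcium permeability of AMPA-type glutamate receptors, was at 2012, 3921, 15716 and 2904 at P0, against 98.7, 89.2 and 9.19 at E12.5 (difference 4.44, with 12.09 ± 1.30 at P0, SD, n = 4 cells, and 7.64 in every E12.5 cell). All 3 probe sets of Gria2 were higher at P0, by 1.12 to 4.44. The remaining members were Adam22, a synaptic receptor of the secreted protein LGI1 (at least 1112 at P0, against at most 145 at E12.5), and Syap1, a synapse-associated protein (at least 2042, against at most 977).

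The windows around the start sites of the leading gene and of the receptor subunit are shown for comparison with those of 2 E12.5 factors further below. Each runs from 250 bases before to 50 bases after the start, 5′ to 3′ on the gene's strand, from RefSeq on build GRCm38.p6. Sphkap lies at chr1:83408151-83408450 on the minus strand and Gria2 at chr3:80802786-80803085 on the minus strand. Capitals mark GGGAGGG, the G-rich letters bound by the zinc finger factor MAZ, whose gene is on the E12.5 list.
Sphkap: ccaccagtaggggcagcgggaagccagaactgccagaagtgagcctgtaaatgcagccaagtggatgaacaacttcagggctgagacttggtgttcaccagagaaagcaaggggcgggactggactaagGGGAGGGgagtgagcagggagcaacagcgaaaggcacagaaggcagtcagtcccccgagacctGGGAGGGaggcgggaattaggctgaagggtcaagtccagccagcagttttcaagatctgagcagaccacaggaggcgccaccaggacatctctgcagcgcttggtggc
Gria2: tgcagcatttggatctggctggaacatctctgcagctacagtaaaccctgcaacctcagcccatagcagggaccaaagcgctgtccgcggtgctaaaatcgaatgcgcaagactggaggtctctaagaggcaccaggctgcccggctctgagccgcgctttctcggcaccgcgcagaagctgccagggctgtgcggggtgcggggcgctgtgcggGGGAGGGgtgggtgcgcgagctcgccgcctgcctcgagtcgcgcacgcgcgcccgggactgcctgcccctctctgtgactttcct
The motif stood in Sphkap 2 times and in Gria2 once. It stood in 39.4% of the P0 windows found, beside 28.7% of all windows, and a link between MAZ and these genes was not tested.

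Entry of new proteins into the endoplasmic reticulum supplied 3 of the P0 genes. Srp72, a protein of the signal recognition particle, had signals of 6672, 24979, 4135 and 2512 at P0, against 940.3, 89.2 and 223 at E12.5 (difference 4.22). Ssr1 and Ssr4 encode subunits of the translocon-associated protein complex that sits beside the protein channel. Ssr4 was at 1722, 4955, 2959 and 3083 at P0, against 6.87, 3.73 and 2.38 at E12.5 (3.89), with every E12.5 cell below the floor. Ssr1 was at 2636, 16476, 11712 and 1172 at P0, against 55.8, 298 and 834 at E12.5 (3.75), but its other probe sets reached down to -1.19, and 11 of 13 other cells of the series held it.

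The cytoskeleton and adhesion group had 5 P0 genes. Kif3c, a neuronal kinesin-2 motor, was at 3311, 6038, 6686 and 3583 at P0, against 276, 405 and 569 at E12.5 (difference 3.55, with 12.19 ± 0.52 at P0, SD, n = 4 cells, and 8.64 ± 0.52 at E12.5, SD, n = 3 cells). It was also held by 5 of 6 ganglion cells of E13.5 to E15.5. Map9, a microtubule-associated protein, was at 2860.5, 10028, 14345 and 2969 at P0, against 70.3, 537 and 43.9 at E12.5 (4.41). Shtn1, or shootin 1, which couples actin flow to adhesion in growing axons, was at least 1054 at P0, against at most 34.8 at E12.5 (4.19). Trak2, an adaptor between kinesin and mitochondria, was at least 1768, against at most 42.0 (3.71), and Ppp1r12a, the myosin phosphatase targeting subunit, at least 1952, against at most 512 (3.33).

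Signalling genes numbered 7 on the P0 list. Acp1, a low molecular weight tyrosine phosphatase, was at 23089, 11409, 19337 and 2143 at P0, against 2.05, 3.0 and 553 at E12.5 (difference 5.19). Cblb, a ubiquitin ligase that limits receptor signalling, was at 5544, 3147, 25996 and 2793 at P0, against 30.3, 5.65 and 3.17 at E12.5 (4.90). Pip4p2, a phosphoinositide phosphatase, was at 3528, 9229, 5976 and 2395 at P0, against 10.5, 3.72 and 245 at E12.5 (4.44). In all 3 of these genes cell F1 was the dimmest P0 cell. C2cd5, a C2 domain protein of vesicle traffic, was at 1806, 8129, 6454 and 2780.2 at P0, against 77.1, 61.8 and 160.0 at E12.5 (4.33). Rapgef2, an exchange factor for the small GTPase Rap, was at least 1215 at P0, against at most 388 at E12.5 (4.09). Dact1, which binds Dishevelled in Wnt signalling, was at least 1475, against at most 580.0 (3.98), and Azi2, an adaptor of the kinase TBK1, at least 1207, against at most 142 (3.87).

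Nuclear and RNA-related genes were split over several functions. Nap1l5, an imprinted member of the nucleosome assembly family, was at 6686, 5540.2, 13206 and 4018 at P0, against 3.1, 2.75 and 34 at E12.5 (difference 5.06), and it was held by 5 of 5 P0 amacrine cells. Kmt2c, a histone H3 lysine 4 methyltransferase, was at least 2801 at P0, against at most 405 at E12.5 (3.97), and Zfp326, a zinc finger protein of splicing, at least 1042, against at most 937 (2.86). Ranbp6, a nuclear import receptor, was at 6544, 9262, 12669 and 2468 at P0, against 3.47, 21.9 and 7.44 at E12.5 (5.04). Cnot6l, a deadenylase, was at least 1750.0, against at most 973 (3.80), Nip7, a ribosome assembly factor, at least 1046, against at most 373 (3.53), and Tdrkh, a Tudor domain protein, at least 1192, against at most 986 (2.80).

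Mitochondrial genes on the P0 list were Pank2, Mrpl55 and Nudt9. Pank2, which starts coenzyme A synthesis, was at 6135, 1532, 9524 and 2838 at P0, against 8.31, 11.9 and 6.78 at E12.5 (difference 4.32). Mrpl55, a mitochondrial ribosomal protein, was at least 1686 at P0, against at most 152 at E12.5 (3.86), and Nudt9, an ADP-ribose hydrolase, at least 1881, against at most 497 (3.37). Like Sphkap, Nudt9 was held by none of the 15 other cells.

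At the membrane, Slc36a4, an amino acid transporter, was at 3138, 7514, 13711 and 4282 at P0, against 5.86, 9.64 and 5.61 at E12.5 (difference 4.93). Leprot, a small membrane protein of receptor traffic, was at 3139.7, 1653, 7929.8 and 8333 at P0, against 169, 15 and 87.2 at E12.5 (4.43). Cd47, a surface protein that inhibits phagocytosis, was at least 1239 at P0, against at most 131 at E12.5 (3.19), though the lowest of its 5 probe sets lay at -1.70. Among the genes without a group, Lgalsl, a galectin-like protein, was at 4576, 12728, 43154 and 3873 at P0, against 127, 634 and 3.61 at E12.5 (5.08), with its 2 probe sets at 4.90 and 5.08. Rnf24, a RING finger protein, was at 8954, 1267, 10339 and 3976 at P0, against 6.26, 43 and 51.2 at E12.5 (4.54). Phtf2 (3.73) and D030056L22Rik (3.84) completed the list.

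The 46 E12.5 genes had a median difference of -3.86, with a range of -6.64 to -1.89. Within E12.5 the highest E12.5 cell was 1.28 to 9.84 times the lowest, with a median of 2.95 times over 3 cells. All 4 P0 cells were at the floor for 11 of them. Cell F1 of P0 was above the floor for 29, against 11 in A3, 11 in C6 and 10 in A6, and F1 was also the cell that held the most genes overall. Of 139 genes held by all E12.5 cells and by a single P0 cell, that cell was F1 for 83, A3 for 25, C6 for 17 and A6 for 14.

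**Figure D2:**
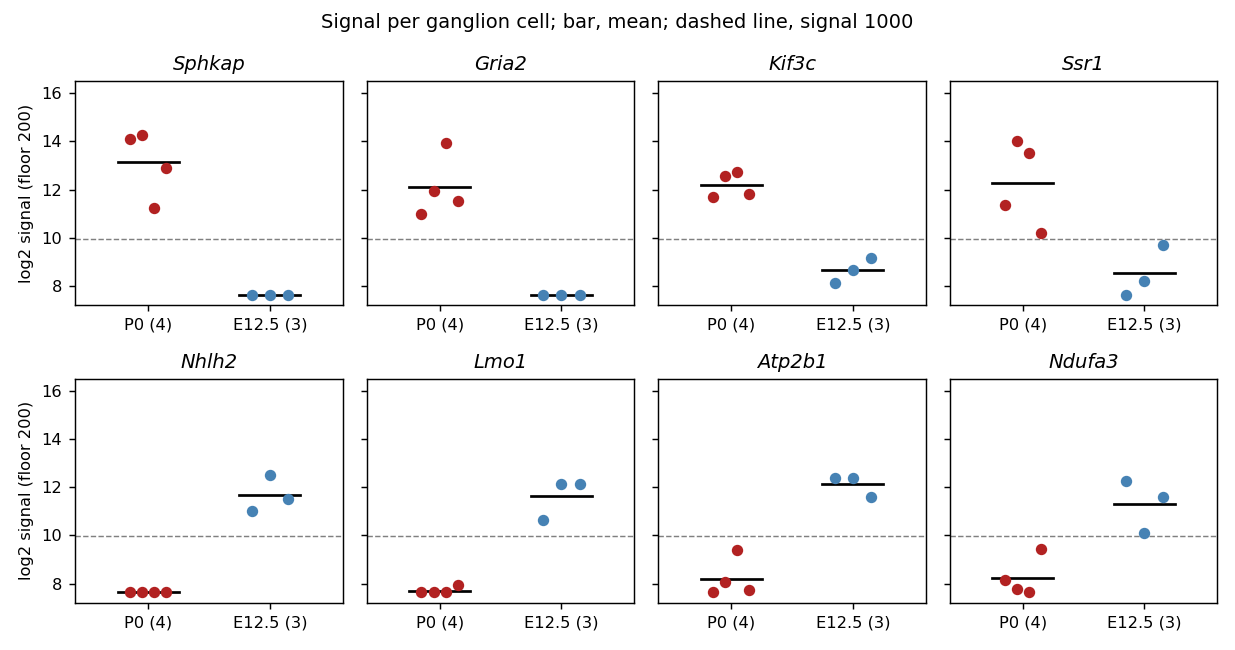
Log2 signal (floor 200) of 8 listed genes, 1 point per cell, P0 cells left and E12.5 cells right in each panel, with a bar at the mean and a dashed line at a signal of 1000. Sphkap and Gria2 are at the floor in all 3 E12.5 cells, and Nhlh2 is at the floor in all 4 P0 cells.

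Chromatin and transcription took 3 of the 36 P0 genes and 10 of the 46 E12.5 genes, more than any other group of the E12.5 list. The groups were formed for listed genes only. Their shares over all genes tested are not known, so the counts do not show a contrast between the stages. Nhlh2, a basic helix-loop-helix factor of young neurons, had signals of 41.9, 58, 48 and 97.8 at P0, against 2085, 5751 and 2945 at E12.5 (difference -4.04, with 7.64 in every P0 cell and 11.68 ± 0.74 at E12.5, SD, n = 3 cells). It was held by 5 of 6 ganglion cells of E13.5 to E15.5 and by 4 of 5 P0 amacrine cells. Lmo1, a LIM-only cofactor of transcription, was at 2.58, 14, 30.4 and 244 at P0, against 1593, 4473 and 4538 at E12.5 (-3.92). Phf21b, a PHD finger protein, was at 42.2, 6.83, 365 and 33.6 at P0, against 9758, 1678 and 4664 at E12.5 (-4.19).

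The windows of the 2 factors are shown with the same layout. Nhlh2 lies at chr3:102009895-102010194 on the plus strand and Lmo1 at chr7:109175158-109175457 on the minus strand. Capitals mark CCAAT, the CCAAT box, or its reverse complement ATTGG, and the E-box CAGCTG, the kind of element that basic helix-loop-helix factors bind.
Nhlh2: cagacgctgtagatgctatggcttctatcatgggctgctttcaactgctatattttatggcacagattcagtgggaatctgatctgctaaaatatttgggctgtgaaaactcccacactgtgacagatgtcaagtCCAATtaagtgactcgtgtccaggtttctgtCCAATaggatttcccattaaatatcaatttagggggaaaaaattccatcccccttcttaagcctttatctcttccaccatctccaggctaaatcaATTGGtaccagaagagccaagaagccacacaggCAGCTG
Lmo1: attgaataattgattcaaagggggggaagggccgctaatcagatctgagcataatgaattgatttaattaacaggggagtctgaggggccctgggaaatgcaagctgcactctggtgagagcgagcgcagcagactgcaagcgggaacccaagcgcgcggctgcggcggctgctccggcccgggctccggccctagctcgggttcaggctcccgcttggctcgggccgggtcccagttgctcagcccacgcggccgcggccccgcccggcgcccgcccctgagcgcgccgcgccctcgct
In Nhlh2 there were 3 CCAAT matches and 1 CAGCTG match, and in Lmo1 none of the motifs searched.

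Chromatin regulators on the E12.5 list covered several opposing functions. Cbx2, a Polycomb protein that reads histone H3 lysine 27 methylation, was at most 14.3 at P0, against at least 1394 at E12.5 (difference -3.85). Kdm6b, which removes that methylation, was at most 206 at P0, against at least 1045 at E12.5 (-3.02), and Kmt2a, a histone H3 lysine 4 methyltransferase, at most 784, against at least 1099 (-2.33). Dpf2, a BAF remodelling subunit, was at most 866 at P0, against at least 3917 at E12.5 (-3.37). Tlk2, a kinase of chromatin assembly, was at most 689, against at least 3535 (-3.51), Zfp60, a zinc finger protein, at most 478, against at least 1876 (-3.90), and Maz, a zinc finger factor, at most 990.4, against at least 1133 (-1.89). Dpf2 was held by 5 of 6 ganglion cells of E13.5 to E15.5.

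RNA processing contributed 4 E12.5 genes, among them the largest difference of either list. Ints6, a subunit of the Integrator complex that processes small nuclear RNAs and ends short transcripts, was at 104, 59.4, 169.8 and 192 at P0, against 18219, 18717 and 23375 at E12.5 (difference -6.64, with 7.64 in every P0 cell and 14.29 ± 0.20 at E12.5, SD, n = 3 cells). Its 3 other probe sets reached up to 0.55, so the difference was not seen by every probe set of the gene. Srrm3, which promotes neuronal microexons, was at 13.4, 101, 190.1 and 421 at P0, against 13435, 4352 and 2087 at E12.5 (-4.36), and none of the other 15 cells held it. Parn, a poly(A) ribonuclease, was at most 325 at P0, against at least 2266 at E12.5 (-3.58), and Dhx9, an RNA helicase, at most 825, against at least 1394 (-2.43).

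Mitochondrial proteins accounted for 6 E12.5 genes. Atp5md, a small subunit of ATP synthase, was at 55.5, 336, 302 and 925 at P0, against 2905, 7341 and 11001 at E12.5 (difference -4.06). Ndufa3, a subunit of complex I, was at 281, 221, 57.6 and 689 at P0, against 4835, 1088 and 3111 at E12.5 (-3.06, with 8.25 ± 0.81 at P0, SD, n = 4 cells, and 11.31 ± 1.11 at E12.5, SD, n = 3 cells). Both had their highest P0 signal in cell F1. The others were Mrpl54 (-3.85) and Mrpl46 (-3.61), proteins of the mitochondrial ribosome, Uqcc1, an assembly factor of complex III (-3.59), and Timm8b, a chaperone of mitochondrial import (-3.06).

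Cytoskeleton and adhesion took 7 places. Csrp2, a LIM protein that binds actin bundles, was at 6.13, 72.5, 178 and 95.7 at P0, against 16693, 2566 and 6890.2 at E12.5 (difference -5.06). Parvb, or beta-parvin, which links integrins to actin, was at 4.92, 4.74, 17.8 and 1.97 at P0, against 6022, 3021 and 2864 at E12.5 (-4.22). Gsn, the actin-severing protein gelsolin, was at most 126 at P0, against at least 1146 at E12.5 (-2.90). Tpgs1, a subunit of a tubulin polyglutamylase (-3.52), Nhsl1, a relative of the Nance-Horan protein (-3.94), Lca5, the ciliary protein lebercilin (-3.92), and Igsf9, an immunoglobulin superfamily protein (-3.75), made up the rest.

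Transporters and receptors of the surface numbered 5. P2rx3, an ATP-gated cation channel best known from sensory neurons, was at 2.66, 8.25, 253 and 31.2 at P0, against 11863, 4376 and 3714 at E12.5 (difference -4.77). Tfrc, the transferrin receptor that brings in iron, was at 11.5, 23.4, 14.7 and 72.4 at P0, against 6562, 2394 and 6936 at E12.5 (-4.58), and 5 of its 6 probe sets were not held by any of the 7 cells. Slc38a10, a member of an amino acid transporter family, was at 1.81, 218, 26.1 and 30.1 at P0, against 8554, 6175 and 2335 at E12.5 (-4.61). It was held by 4 of 6 ganglion cells of E13.5 to E15.5 and by 4 of 5 P0 amacrine cells. Atp2b1, a calcium pump of the plasma membrane, was at 9.9, 267, 680.1 and 212 at P0, against 5324, 5405 and 3057 at E12.5 (-3.91, with 8.21 ± 0.82 at P0, SD, n = 4 cells, and 12.12 ± 0.47 at E12.5, SD, n = 3 cells). Its 3 probe sets were all lower at P0, by -3.91 to -1.49. Slc39a3, a zinc transporter, had a log2 difference of -2.93.

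Signalling and protein quality genes completed the E12.5 list. Grb10, an imprinted adaptor that restrains insulin receptor signalling, was at 5.98, 25.8, 113 and 79 at P0, against 14076, 6061 and 1431 at E12.5 (difference -4.63), and all 6 ganglion cells of E13.5 to E15.5 held it. Numbl, a relative of the Notch antagonist Numb, had a log2 difference of -3.19, and Nfkbib, an inhibitor of NF-kappa B, one of -3.50. Serpinh1, a collagen chaperone of the endoplasmic reticulum, was at 59, 68.1, 70.6 and 5.61 at P0, against 16468, 3437 and 1875 at E12.5 (-4.57). Stub1, a ubiquitin ligase that works with heat shock proteins, was at 84.5, 23.9, 257 and 429.7 at P0, against 2482, 5691 and 7347 at E12.5 (-4.19), with its 2 probe sets at -4.19 and -2.91. Pfdn2, a prefoldin subunit (-3.82), and Trim39, a ubiquitin ligase (-3.80), belonged to the same group.

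Metabolic genes numbered 3 on that list. Elovl5, which elongates polyunsaturated fatty acids, was at 2.57, 30.5, 104 and 889 at P0, against 5122, 11865 and 10442 at E12.5 (difference -4.89), with its 2 probe sets at -5.08 and -4.89. Sephs1, of the selenophosphate synthetase family, had a log2 difference of -3.87, and Ado, a thiol dioxygenase, one of -3.21. Armh4 was at 51.9, 3.26, 19 and 33.1 at P0, against 9212, 6448 and 4809 at E12.5 (-5.04). Irgq (-3.92), 2210016L21Rik (-3.97) and Tnpo1, a nuclear import receptor (-3.26), were the last members.

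At the border of the rule, Tdrkh (lowest P0 signal 1192, highest E12.5 signal 986), Syap1 (2042 and 977) and Cnot6l (1750.0 and 973) were just inside for P0. Mast2 (4797 and 1001), Exoc5 (943 and 896) and Gm16740 (1016 and 1093) were just outside. For E12.5, Maz (highest P0 signal 990.4, lowest E12.5 signal 1133), Lca5 (989.7 and 3228) and 2210016L21Rik (979.9 and 1645) were inside, and St8sia1 (833 and 981), Scrt2 (1033 and 2730.4) and 9330159F19Rik (615 and 966) were outside. Probe sets of the same gene did not always agree. Of the 27 P0 genes with several probe sets, 22 had at least 1 whose difference lay below 1, and in 7 of them 1 was below 0. The counts were 27 of 32 and 11 of 32 for the E12.5 genes, with the signs turned.

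The ganglion cells between the stages were not used by the rule and show how far each list extends. In the single E13.5 cell, 36.1% of the P0 genes and 52.2% of the E12.5 genes were held, beside 39.4% of all genes tested. In the 2 cells of E14.5 the shares were 43.1% and 54.3%, beside 46.2%. In the 3 cells of E15.5 they were 25% and 28.3%, beside 28.4%. On these averages the P0 list was below all genes at each stage, while the E12.5 list was above them at E13.5 and E14.5 and level with them at E15.5. Listed genes met the filter of 3 cells through their own stage. Other genes could meet it through the cells counted here, so the shares of all genes are not on an equal footing. Only 1 to 3 cells stand behind each value. The lens gene Cryaa was at 5861 in the E13.5 cell and at 28896 and 34776 at E14.5, the embryonic globin Hbb-y was at 14516 or more in each cell of E14.5 and E15.5, and the part of such transcripts in these shares was not tested.

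In P0 cells of other types the P0 genes had the higher average share, and in 4 of 5 amacrine cells taken singly. In 5 P0 amacrine cells 39.4% of the P0 genes were held and 30.9% of the E12.5 genes, beside 35.5% of all genes tested. In 2 P0 photoreceptors the shares were 25% and 18.5%, beside 33.3%. Of the 36 P0 genes, 29 were held by at least 1 P0 amacrine cell and 7 by none. Of all 7184 genes tested, 1446 were held by no P0 amacrine cell. Listed genes met the filter through their own stage, while other genes could meet it through the amacrine cells or photoreceptors counted here. The values for all genes are thus not on an equal footing with those of the lists, and no conclusion is drawn from comparing them. Sphkap and Nudt9 were the only P0 genes held by none of these 13 cells. Of the 46 E12.5 genes, Srrm3, Uqcc1, Tpgs1, Nfkbib and Numbl were held by none of the 13.

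**Figure D3:**
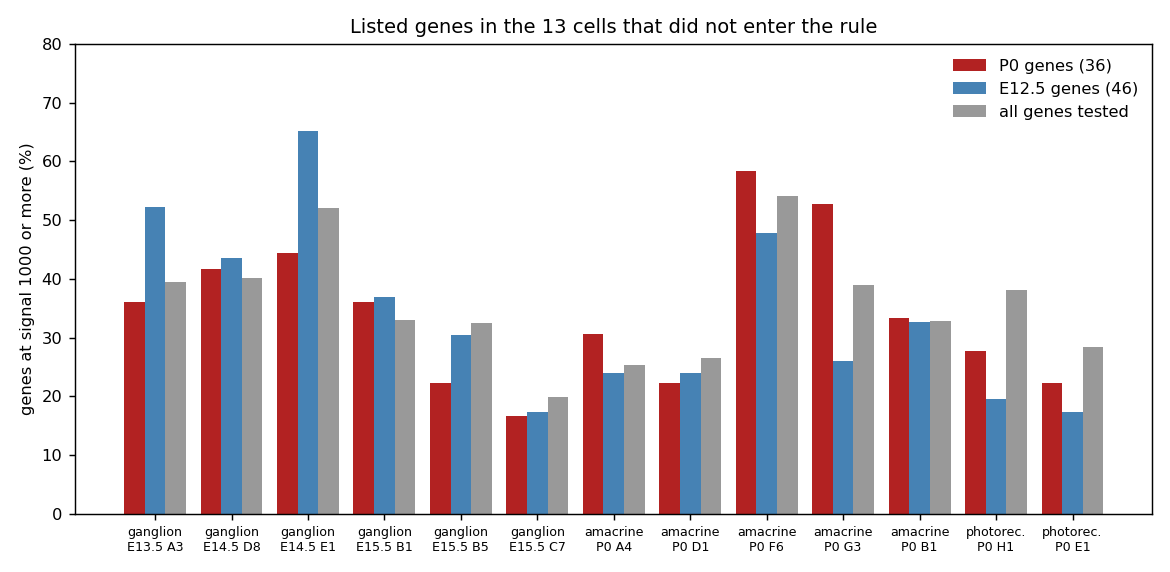
Share of the P0 genes, the E12.5 genes and all genes tested that were at a signal of 1000 or more in each of the 13 cells outside the rule, ordered by type and stage. In the E13.5 cell and in E14.5 cell E1 the P0 genes stand below the E12.5 genes by over 10 points, and in P0 amacrine cell G3 the P0 genes stand at 52.8% and the E12.5 genes at 26.1%.

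The 4 newborn cells also differed from each other in genes of ganglion cell types, singled out after their values were seen. Cell A6 alone among all 22 cells held Opn4, the photopigment melanopsin of intrinsically photosensitive ganglion cells, at 27842, and Eomes, or Tbr2, a factor needed by those cells, at 46203. In the other 6 cells of the comparison the highest signals were 172 for Opn4 and 88.7 for Eomes. Cell A6 was also below 1000 for Pou4f1 (275), Nefm, the medium neurofilament (31.2), Sncg, or gamma-synuclein (415), and Calb2 (315). Cell A3 alone held Cartpt, a peptide of direction-selective ganglion cells, at 4658, and cell C6 alone held Tbr1, a factor of a subset of ganglion cells, at 2752. The P0 group therefore held cells with unlike subtype genes, and only what they shared could enter the P0 list. For E12.5, Irx2 was at 51.1, 507, 283 and 517 at P0, against 535, 10048 and 4763 at E12.5, and Irx3 at 461, 28.8, 16.3 and 1812 at P0, against 300.2, 8362 and 5454 at E12.5, both higher in F3 and F6 than in E4.

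A signal can differ between all cells of the stages without meeting the threshold of 1000. All P0 cells were above all E12.5 cells for 186 genes (2.59% of those tested), and all P0 cells below all E12.5 cells for 250 (3.48%). Of 30 gene lists drawn up for retinal neurons, cytosolic ribosomal protein genes held the largest share of members in which the stages did not overlap. For 16 of their 39 tested members every P0 cell was below every E12.5 cell, and for 1 above. The median difference was -1.39, beside 0.08 over all genes, and 32 of 39 were below 0. With single cells removed, the median lay between -1.62 and -0.91 and the members below numbered 16 to 22. Over all genes tested the number below then ran from 295 to 576, since fewer cells have to differ.

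Ribosomal proteins are the building blocks of the ribosome, and their genes are usually expressed together. Rps29 was at 332, 129, 810.1 and 2980.2 at P0, against 11375, 9864 and 11828 at E12.5 (difference -4.12), and Rpl38 at 529, 449, 17.1 and 3344 at P0, against 10271, 8594 and 11817 at E12.5 (-4.01). At the other end were Rpl4 at 52739.9, 72174, 74245 and 24863 at P0, against 27309, 41635 and 33939.9 at E12.5 (0.61) and Rpl7a at 24264, 41943, 16334 and 16424 at P0, against 13064, 14701 and 8569 at E12.5 (0.95). The list as a whole was thus lower at P0 but not each member. Only 44 of the 79 genes on the list were measured by a probe set with a single gene symbol, and many ribosomal protein genes have near-identical copies that a probe set may not separate.

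Per cell, the median log2 signal of the 39 genes was 12.37, 12.73, 10.38 and 13.61 in P0 cells A3, C6, A6 and F1, against 14.15, 14.24 and 14.35 in the E12.5 cells. All P0 cells were below all E12.5 cells. Among the 4 P0 cells, the lowest value was in A6, which held the fewest genes, and the highest in F1, which held the most. Across the later embryonic stages the values were 13.35 at E13.5, 14.50 and 14.66 at E14.5 and 14.94, 14.95 and 15.59 at E15.5. The highest of these was in E15.5 cell C7, which held only 1518 genes, the fewest of any cell in the series. P0 amacrine cells ran from 11.40 to 14.04, and P0 photoreceptors were at 12.85 and 14.39. What part the number of genes held plays in these levels was not tested.

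Oxidative phosphorylation, the energy-yielding chain of the mitochondria, was lower by a smaller margin. Of 70 tested subunit genes, 45 were below 0 and 25 above, with a median of -0.97. For 13 (18.6%) every P0 cell was below every E12.5 cell, beside 3.48% of all genes tested, against 2 above. The count below was 26 without P0 cell F1, 22 without E12.5 cell E4 and 21 without F6. Such counts rise when fewer cells have to differ, and over all genes tested 250 became 417, 576 and 475. Cox5b was at 247, 539, 474 and 2366 at P0, against 10721, 17123 and 16331 at E12.5 (difference -4.54), and Cox8a at 317, 585, 56.1 and 2324 at P0, against 11959, 8972 and 12898 at E12.5 (-4.36), both subunits of cytochrome c oxidase. In the other direction, Sdhc of complex II was at 8951, 20788, 13816 and 5315 at P0, against 161, 2392 and 2621 at E12.5 (3.33), and Ndufa8 of complex I at 1589, 886, 566 and 5965 at P0, against 43.7, 179 and 459 at E12.5 (2.48). Per cell, the median log2 signal was 10.57, 10.50, 8.88 and 12.07 in P0 cells A3, C6, A6 and F1, against 11.91, 12.24 and 12.19 in E12.5 cells E4, F3 and F6, so the stages overlapped. The E13.5 cell was at 10.38, and E15.5 cell C7 at 8.99.

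**Figure D4:**
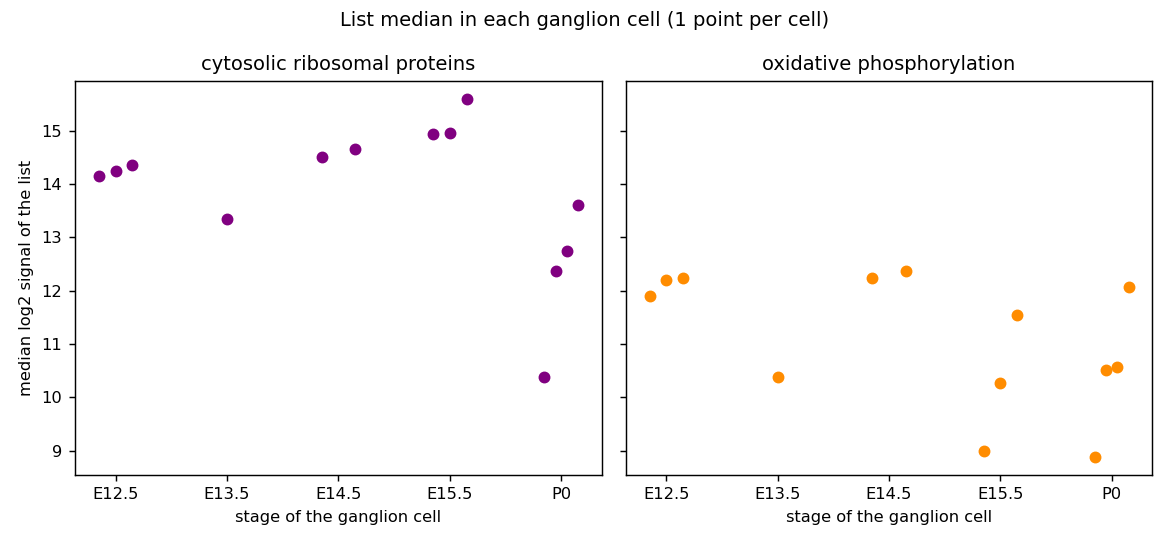
Median log2 signal (floor 200) of 39 cytosolic ribosomal protein genes (left) and 70 oxidative phosphorylation genes (right) in each of the 13 ganglion cells, by stage, 1 point per cell. The ribosomal medians of the 4 P0 cells, 10.38 to 13.61, lie below those of the 3 E12.5 cells, 14.15 to 14.35, and the E13.5 cell, at 13.35, lies within the P0 range.

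Glycolysis and glucose uptake genes had a median of -0.20 over 22 tested, with 10 above 0 and 12 below. For 4 of them (18.2%) every P0 cell was below every E12.5 cell, and for 1 (4.55%) above, beside 3.48% and 2.59% of all genes tested. The median was -0.34 without P0 cell A3 and -0.01 without P0 cell F1. Tpi1, a glycolytic isomerase, was at 2499, 8524, 906 and 383 at P0, against 8702, 15227 and 10564 at E12.5 (difference -2.76), and Pfkm, the muscle-type phosphofructokinase, had a log2 difference of -2.83, while Got1 (3.53) and Got2 (2.93), the aspartate aminotransferases, were higher at P0. Proteasome and ubiquitin genes were also mixed (43 tested, median 0.27, 24 above and 19 below). Their median changed sign without E12.5 cell E4. Psmd14 (3.17) and Psmd7 (3.05), proteins of the proteasome lid, were at the top, and Ube3a (-3.22), a ubiquitin ligase, and Psmc2 (-3.19), a proteasome ATPase, at the bottom. Splicing proteins had a median of 0.06 over 37 genes (-0.07 without P0 cell C6, 0.32 without A6), with Hnrnpf at 2.46, Srsf10 at 2.42, U2af2 at -1.55 and Snrpg at -2.26. Stress and immediate early genes had a median of 0.25 over 14 (0.09 without E12.5 cell F6, 0.63 without F3), with Nr4a1 at 2.97, Dnaja1 at 2.69, Ddit3 at -1.71 and Jund at -1.92.

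Of 22 tested genes of early neuronal differentiation, 15 were below 0 and 6 above, beside 3274 below and 3756 above over all genes, and Nhlh2 was the only one listed. Their median of -0.60 was -0.14 without P0 cell A6, -0.94 without P0 cell F1, -0.91 without E12.5 cell E4 and -1.08 without P0 cell A3. Sox11, a factor of immature neurons, was at 7088, 392, 130.4 and 7370.3 at P0, against 28306, 25341 and 15623 at E12.5 (difference -3.98), and Igfbpl1, of the insulin-like growth factor binding protein family, was at 86.3, 227, 23 and 74.7 at P0, against 4899, 641 and 7564 at E12.5 (-3.80). Neurod1 was at 97.4, 56, 163 and 7198 at P0, against 368, 844 and 60.2 at E12.5 (0.31), and its difference was -0.99 without cell F1 of P0. Elavl4, an RNA-binding protein of neurons, was at 677, 1206, 546 and 1599 at P0, against 12046, 18434 and 10694 at E12.5 (-3.86) and its relative Elavl3 at 600.0, 1267, 47.3 and 8029 at P0, against 8569, 7838 and 9534 at E12.5 (-3.04). In the chromatin and RNA-binding list that holds both, the median was -0.85 over 39 genes. It was -0.29 without P0 cell A6, -0.33 without E12.5 cell F3 and -0.27 without F6. Its highest members were Smarca2, a BAF ATPase, at 8139, 10101, 129 and 4928 at P0, against 167, 117 and 4.61 at E12.5 (3.91) and Rbfox3, the neuronal antigen NeuN, at 2486, 3438, 352 and 1847 at P0, against 90.1, 154 and 11.8 at E12.5 (2.94).

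Among genes that change with developmental time, 19 were tested, with a median of 0.37 (0.20 without P0 cell C6, 0.65 without A6 and 0.69 without E12.5 cell F3). Meg3, an imprinted long noncoding RNA, was at 27136, 71111, 121161 and 26226 at P0, against 82.8, 21856 and 21530.2 at E12.5 (difference 3.45), and Dnmt3a, a de novo DNA methyltransferase, at 3630.4, 245, 9694 and 2620.2 at P0, against 9.92, 27.3 and 39.8 at E12.5 (3.45). All 4 P0 cells were above all 3 E12.5 cells in both genes, though for Meg3 only cell E4 was at the floor. Cells F3 and F6 were near the lowest P0 cell for Meg3. With Marcks and Hmgn3, 4 of the 19 members (21.1%) had every P0 cell above, and 1 (5.26%) every P0 cell below. Over all genes tested the shares were 2.59% and 3.48%. Tmsb10, or thymosin beta 10, was at 9977, 20407, 3258 and 32985 at P0, against 39151, 44564 and 44268 at E12.5 (-1.81), with every P0 cell below every E12.5 cell, and Mycn had a log2 difference of -1.54.

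Axon genes differed by gene and not as a class. Axon guidance genes had a median of -0.30 over 31 tested, with 20 below 0 and 9 above, and the median was -0.07 without E12.5 cell E4, -0.20 without F3 and -0.11 without F6. Nrp1, a semaphorin receptor, was at 79.3, 22.5, 44.4 and 4052 at P0, against 9596, 8926 and 8497 at E12.5 (difference -4.41), below the floor in 3 of 4 newborn cells and lower in F1 than in any E12.5 cell. Dcc, the netrin receptor, was at 4743, 4521, 15.3 and 5132 at P0, against 645, 61.1 and 2.73 at E12.5 (2.87), but below the floor in cell A6. Sema6a had a log2 difference of -2.16 and Efnb2, an ephrin, one of 1.14. Microtubule, filament and growth cone genes had a median of -0.04 over 50 (-0.10 without E12.5 cell F6, 0.16 without P0 cell A6), 30 of which were held by all 7 cells, and Kif3c was the only one listed. The unlisted genes with the largest differences in each direction were Map1b, a microtubule protein of growing axons, at 4638, 171, 36215 and 1993 at P0, against 147, 237 and 559.8 at E12.5 (3.26), Nefm at 455, 54101, 31.2 and 18754 at P0, against 30916, 32951 and 16508 at E12.5 (-3.05), Vim, the intermediate filament vimentin, at -2.63 and Ank3, the scaffold ankyrin G, at 2.62.

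Regulators of axon growth had a median of 0.23 over 21 genes, which was -0.02 without P0 cell A6, 0 without F1 and 0.40 without E12.5 cell F6. Bcl11b had a log2 difference of 3.03, and Stat3 was at 748, 2177, 1328 and 1874 at P0, against 28.7, 102 and 5.67 at E12.5 (difference 2.83), while Ngfr, a neurotrophin receptor, was at 44, 16.2, 317 and 1612 at P0, against 30.0, 12086 and 11904 at E12.5 (-3.02). Adhesion molecules of the immunoglobulin and cadherin families had a median of 0.74 over 22 genes. It was 0.15 without P0 cell A6, 0.16 without A3, 0.29 without E12.5 cell E4, 0.19 without F3 and 1.19 without F6. For 3 members (13.6%) every P0 cell was below every E12.5 cell, with none above, beside 3.48% and 2.59% of all genes tested. Negr1, a neuronal growth regulator, was at 11448, 5274, 94.5 and 14640.0 at P0, against 5.06, 62.5 and 64.9 at E12.5 (4.19), again low in cell A6 alone among newborn cells. Pcdh19 had a log2 difference of 2.35, Cadm4 one of -2.72 and Nrcam one of -2.36. Neurotrophin and survival genes had a median of -0.29 over 24, which turned to 0.24 without E12.5 cell F3 and 0.03 without F6 and was -0.55 without E4, with Fgf13 at 3.29, Xiap at 1.26 and Diablo, a mitochondrial promoter of cell death, at 2546, 13.6, 22.4 and 85.1 at P0, against 8734, 6811 and 6359 at E12.5 (-4.26).

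Synaptic vesicle and release genes had a median of 0.39 over 38 tested, with 23 above 0 and 14 below, and the median was 0.22 without P0 cell F1, 0.25 without E12.5 cell E4 and 0.96 without P0 cell A6. Snap25, a SNARE protein of vesicle fusion, was at 55263, 86563, 65202 and 32978 at P0, against 20449.7, 12473 and 13619.7 at E12.5 (difference 1.90, a gene chosen after its values were seen). Syt4, a synaptotagmin, was at 43316, 40652, 16708 and 21719 at P0, against 99.8, 14092 and 4414 at E12.5 (3.61), and Sh3gl2, or endophilin A1, at 7649, 18469.8, 6089 and 3616 at P0, against 10.1, 76.4 and 4636 at E12.5 (3.71). Other synaptotagmins went the other way, with Syt11 at 4.14, 7438, 283 and 2711 at P0, against 12966, 11254 and 13465 at E12.5 (-3.60) and Syt13 at -2.97. Postsynaptic and synapse-organising genes had a median of 0.67 over 17 (0.19 without P0 cell C6, 0.34 without E12.5 cell E4 and 1.15 without F6). Every P0 cell was below every E12.5 cell in 2 members (11.8%) and above in 1 (5.88%), beside 3.48% and 2.59% of all genes tested. They included Dlg2, a scaffold of receptors, at 3.51, Cbln1 at 2.67, Nrxn2 at -2.47 and Gpm6b at -3.29.

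Transmitter receptor genes had a median of 0.39 over 22 tested, 14 above 0 and 8 below, with Gria2 the only one listed. Glrb, the beta subunit of the glycine receptor, was at 18.8, 2.37, 20038 and 6903 at P0, against 8.88, 35.3 and 40.2 at E12.5 (difference 2.94), carried by cells A6 and F1 of P0, and Grm7 had a log2 difference of 2.49. Cnr1, the cannabinoid receptor, was at 22.6, 129, 101 and 1827 at P0, against 10953, 14213 and 9689 at E12.5 (-5.04), and Chrnb2, a nicotinic acetylcholine receptor subunit, at 150.1, 18.9, 15.4 and 1594 at P0, against 7832, 3881 and 6078 at E12.5 (-4.08). Both missed the E12.5 list only because cell F1 of P0 passed 1000. Voltage-gated channel genes had a median of -0.01 over 25 (-0.32 without E12.5 cell F3, 0.29 without F6), with Fgf13, a regulator of sodium channels, at 18787, 3872, 12199.7 and 7252 at P0, against 4.23, 5590.1 and 689 at E12.5 (3.29), Cacna1d at 2.04 and Kcnk1 at -2.77.

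Chloride, sodium and calcium transport genes had the highest median of the lists with at least 10 tested genes, 1.38 over 19, with 15 above 0 and 4 below. It was 0.61 without E12.5 cell E4, 0.74 without P0 cell F1 and 1.83 without E12.5 cell F6. Calb2, the calcium buffer calretinin, was at 20079, 10132, 315 and 22979.6 at P0, against 192, 11.2 and 13.2 at E12.5 (difference 4.95), and Atp1b2, a beta subunit of the sodium pump, at 57.7, 3091, 11294 and 2772 at P0, against 3.17, 17.9 and 35.3 at E12.5 (3.39). Each was below 1000 in 1 newborn cell and in every E12.5 cell. Atp2b1, on the E12.5 list, was among the 4 genes below 0. Atp1b3, another sodium pump subunit, had a log2 difference of -1.85, from a single E12.5 cell at 11568, and Slc12a5, the chloride extruder KCC2, one of -1.14, from a single E12.5 cell at 2120.4.

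Ganglion markers themselves had a median of -0.59 over 18 tested genes, which was -0.26 without P0 cell A3, -0.20 without E12.5 cell F3 and -0.92 without F6. Sncg was at 12905, 26519, 415 and 19892 at P0, against 41475, 41093 and 35925 at E12.5 (difference -2.43) and Slc17a6, the vesicular glutamate transporter of ganglion cells, at 3496, 5647, 3369.8 and 3562 at P0, against 11044, 7591 and 9824 at E12.5 (-1.26), in both with every P0 cell below every E12.5 cell, and both were singled out after their values were seen. Nefl went the other way, at 16421, 52616, 14060 and 15401 at P0, against 12417, 6243 and 7224 at E12.5 (1.34), with every P0 cell above. For 4 members of the list (22.2%) every P0 cell was below every E12.5 cell, and for 1 (5.56%) above, beside 3.48% and 2.59% of all genes tested. Nrn1, a neurite growth factor, was at 1242, 9434, 31571 and 11601 at P0, against 10.4, 5427 and 8518 at E12.5 (1.95). Of the subtype and postnatal genes, 7 were tested (median 0.31, but 0 without P0 cell A3 and 1.31 without C6), with Satb1, a chromatin organiser, at 14712, 5766, 87.5 and 5383 at P0, against 7.87, 551 and 40.2 at E12.5 (3.46) and Irx5 at -1.97.

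Gene length was a feature the rule did not use. The genomic span, from the RefSeq annotation, had a median of 37.2 kb for the P0 genes and 22.8 kb for the E12.5 genes, beside 25.9 kb for all genes tested. Among genes whose cells did not overlap it was 34.5 kb for the 186 higher at P0 and 14.5 kb for the 250 lower at P0. Ranked by span, genes were split into 4 groups of 1794. In the group of shortest genes (at most 11.1 kb), 39 (2.17%) had every P0 cell above and 107 (5.96%) every P0 cell below. In the group of longest genes (at least 59.4 kb) the counts were 55 (3.07%) and 44 (2.45%). Tested cytosolic ribosomal protein genes had a median span of 3.67 kb and oxidative phosphorylation genes one of 7.39 kb. Every P0 cell was below every E12.5 cell for 16 and 13 of them, and their part in the contrast by span was not tested. The median difference was -0.04, 0.03, 0.15 and 0.31 from the shortest to the longest group.

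The same contrast appeared inside single cells, as a comparison made after seeing these values. P0 cells A3, C6, A6 and F1 held 46.6%, 43.8%, 31.8% and 58.5% of the longest group and 42.4%, 39.7%, 27.1% and 56.1% of the shortest. E12.5 cells E4, F3 and F6 held 32.7%, 44.0% and 45.2% of the longest and 38.2%, 48.9% and 47.6% of the shortest. The longest minus the shortest was thus 4.24, 4.12, 4.68 and 2.34 points in the P0 cells, against -5.52, -4.85 and -2.45 in the E12.5 cells. In the 6 ganglion cells of E13.5 to E15.5 it ran from -10.1 to -2.73, in P0 amacrine cells from -6.35 to 0.56, and in P0 photoreceptors it was -8.64 and -7.08. All 4 newborn ganglion cells were above every other cell of the series on this measure, although they held between 2293 and 4352 genes. Span is measured in the genome and includes introns, transcripts were amplified from their 3′ ends, and no test is possible with 1 sample a stage.

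**Figure D5:**
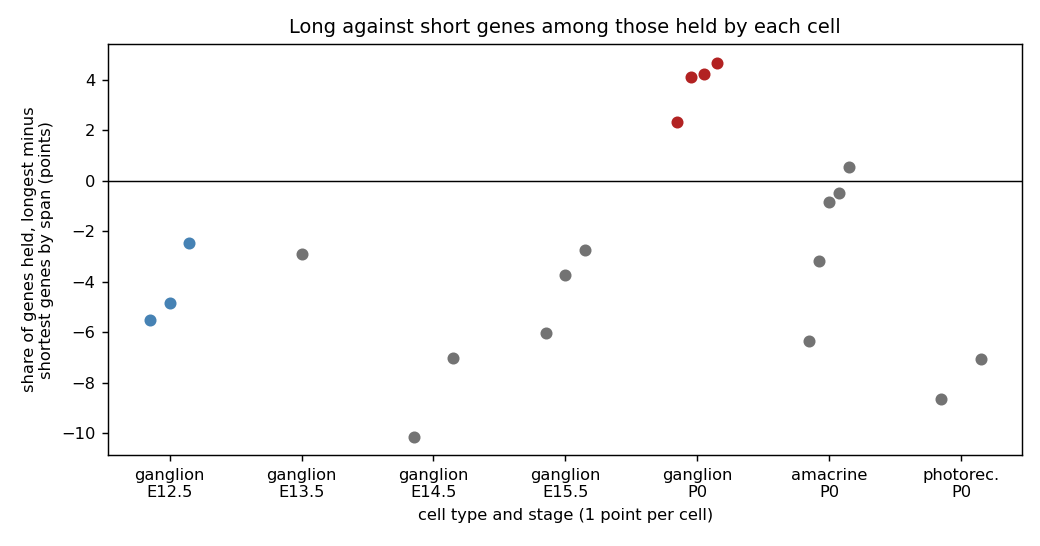
Share of genes held among the 1794 genes of longest genomic span minus that among the 1794 of shortest span, in percentage points, 1 point per cell, for ganglion cells by stage and P0 amacrine cells and photoreceptors. The 4 P0 ganglion cells lie between 2.34 and 4.68 and the 9 embryonic ganglion cells between -10.1 and -2.45.

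Promoter windows were found for 33 of the 36 P0 genes, 40 of the 46 E12.5 genes and 5884 of all genes tested. Their median GC content was 65.7%, 60.3% and 62.0%. Searched on both strands, GGGAGGG stood in 39.4% of the P0 and 30.0% of the E12.5 windows, beside 28.7% of all windows of the same length. CCAAT stood in 36.4% and 47.5%, beside 38.4%, and CAGCTG in 6.06% and 15.0%, beside 13.8%. For CATATG, another E-box, the shares were 0 and 5.00%, beside 1.39%, and for TATAAA, the TATA box, 6.06% and 7.50%, beside 6.14%. The EBF motif and the left and right parts of the RE1 element stood in none of the listed windows and in 0.884%, 0.391% and 0.272% of all windows. GGGAGGG can share letters with the EBF motif, and no matches overlapped in the 4 windows shown. In lists this short, 1 window moves a share by 2 to 3 points, and a match is a description of letters, not a site.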

How the data were processed

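Each sample was 1 cell on 1 Affymetrix 430 2.0 array. Signals are linear intensity values made by the authors with MAS5, per the submitters' processing notes, and were used as deposited. The trimmed mean (2% off each end) was 500 on 21 arrays, and 1 array, of a P0 amacrine cell, was scaled by 27.6 to match. Of 45101 probe sets, 34958 had a single gene symbol, of which 34754 matched the RefSeq gene table, 932 had several and 9211 none, and 64 were controls. Each of 18194 genes was read from its brightest probe set by mean log2 signal over all 22 cells, and the 7184 tested genes reached 1000 in no fewer than 3 of the 22. Precision is limited by the few arrays per stage.

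Signals under 200 were set to 200 and log2 was taken. No model was fitted, since each stage is 1 sample. The genes given with every cell's value were the 15 with the largest difference in each direction, listed members of the gene lists and up to 4 of the highest and lowest members of each list. Other genes were chosen after their values were seen. The members and lists were chosen with earlier results of these data known. Gene names, spans and promoter windows came from RefSeq on GRCm38.p6. In simulated data the rule recovered the planted genes. These were drawn on either side of its own threshold, so the recovery checks only that the rule was coded correctly. Python 3.11.15, pandas 2.3.3, NumPy 2.4.6, SciPy 1.17.1 and matplotlib 3.10.9 were used.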

Additional observations from a re-analysis of the deposited data

How the results depend on the processing

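The 36 P0 and 46 E12.5 genes became 24 and 23 when the other stage had to be below 500, and 18 and 34 with the mean over probe sets, of which 11 and 17 were shared with the lists given. With a threshold of 500 there were 47 and 40 genes (24 and 23 shared), with 2000 there were 26 and 52 (14 and 25 shared), with quantile scaling 34 and 54 (21 and 32 shared), and with the highest probe set in each cell 33 and 46 (29 and 41 shared). Leaving out each cell in turn gave 51 to 122 P0 genes and 60 to 155 E12.5 genes, longer by construction. Over these settings the median difference of all genes lay between 0 and 0.208. Removing 1 cell cannot move a difference beyond the spread between cells, and lifting the filter of 3 cells changes none. Of 2254 recomputed differences of 161 named genes, 2078 moved by less than that spread, 170 moved further and 6 changed sign. None of the 6 belonged to a listed gene, whose sign the rule fixes under other floors, medians over cells and removal of a cell. These 6 values were the log2 difference of Neurod1 (-0.88 with medians over cells, -0.99 without P0 cell F1 and -0.19 without E12.5 cell F6, in a range of -0.99 to 0.85 with single cells removed), the log2 difference of Ank3 (-0.28 with the mean over probe sets), the log2 difference of Ddit3 (0.25 without E12.5 cell E4, range -2.68 to 0.25) and the log2 difference of Atp1b3 (0.10 without E12.5 cell F3, range -2.83 to 0.10). For these 6 the cause was not tested, beyond the single cell left out. No paired analysis was possible because the labels give no replicate numbers that link the stages and no test was made. Signals below 200 were not ordered, which limits what can be said of low genes.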
